A study of Mus musculus with 12 samples.

Results

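Genes of peripheral neurons and their glia, 33 in all, were followed in embryonic mouse pancreas of wildtype and β-catenin KO embryos. They were chosen by name: every probe set whose only gene symbol in the array annotation was one of these genes was taken, which gave 85 probe sets for 33 genes, out of 45037 probe sets for 18193 genes. Of the 33 genes, 27 are neuronal (67 probe sets), 3 are glial (6 probe sets), and 3 are made by both neurons and glia (12 probe sets). No filter on low values was applied, so all 85 probe sets were tested. Where a single probe set stands for a gene, it is the chosen one, picked by the suffix and number of its name and never by its value.

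The KO pancreata carried the Pdx1-cre transgene and 2 floxed copies of the β-catenin gene (Pdx1Cre/+; beta-catenin flox/flox), and wildtype pancreata came from matings of the same kind. No number in the array names is shared by a wildtype and a KO pancreas, and which embryos were littermates is not given. Pdx1-cre acts in the epithelium of the developing pancreas, where the study held its expression likely to be mosaic, so neurons, glia and mesenchyme of a KO pancreas are not themselves cells in which the transgene is designed to act. There were 2 wildtype and 4 KO pancreata at embryonic day 14.5 (E14.5) and again at E16.5, each from 1 embryo and on 1 array, 12 arrays in all. No treatment was given. Each value is a ratio: the signal of a probe set divided by the mean of the 2 wildtype pancreata of the same day. The wildtype mean is therefore 1 at each day by construction. How abundant a gene's RNA is, and how it changes with age in wildtype, cannot be read from such values. A log2 fold change is the mean log2 ratio in KO minus that in wildtype of the same day.

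The pancreas is innervated by autonomic and sensory axons and holds intrapancreatic ganglia. Their neurons and glia descend from the neural crest, which reaches the pancreas from the gut region. Neural crest cells that become autonomic neurons switch on Phox2a and Hand2, then the Elav RNA-binding proteins, neurofilaments and catecholamine enzymes, and their axons use Ret and its co-receptors to sense ligands of the glial cell line-derived neurotrophic factor family. Glial precursors are marked by Sox10 and Fabp7. Some of these genes are used by other cells as well, since Snap25, Uchl1 and Ddc are also made by endocrine cells of the islet. In whole pancreata, fewer cells of a type and less RNA per cell cannot be told apart.

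For the whole series, the targeted gene Ctnnb1 (β-catenin) had 3 probe sets. At E16.5 their KO ratios ranged from 0.620 to 1.04 and their log2 fold changes were -0.05, -0.51 and -0.35 (limma adjusted p = 0.896, 0.152 and 0.531), and where their probes lie relative to the deleted exons was not analysed here, so they do not check the labels. Acinar markers fell at E16.5: all 7 measured genes were lower in KO, where 56.1% of all probe sets had a positive log2 fold change. Of the 7 genes, 3 passed the test, where 1.82% of all probe sets were called lower. The median log2 ratio of the 7 was -2.20 in pancreas KO_541J, -2.84 in KO_541L, -1.13 in KO_591C and -0.98 in KO_591D. Islet endocrine markers were higher in 14 of 17 genes at E16.5 (56.1% of all probe sets were). Of these, 0 passed the test (0.802% of all probe sets were called higher). An unadjusted p under 0.05 was reached by 5 (8.48% of all probe sets were higher at that limit).

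At E16.5, 6 of the 85 probe sets passed the limma test (Benjamini-Hochberg adjusted p under 0.05 over all probe sets), where 2.62% of all probe sets passed. Of these, 5 rose in KO (Nefl, Elavl4, Gfra3, Hand2 and Ngfr), where 0.802% of all probe sets were called higher, and 1 fell (Gfra1), where 1.82% were called lower. The unadjusted p was under 0.05 for 37 of the 85, against 16.6% of all probe sets, and 32 of these were higher in KO (8.48% of all probe sets) and 5 lower (8.16%). At E14.5, 0 of the 85 were called by limma, against 0.0111% of all probe sets, and 3 had an unadjusted p under 0.05, against 6.86%. These 3 were Ngfr and S100b, higher (2.34% of all probe sets), and Ddc, lower (4.52%). The difference between the days, tested directly by limma, was called for 0 of the 85, against 0.349% of all probe sets, with 6 at an unadjusted p under 0.05, against 10.4%.

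The direction of the members leaned upward at both days. At E14.5, 71 of the 85 probe sets (83.5%) had a positive log2 fold change, against 55.4% of all probe sets. At E16.5 the count was 69 (81.2%), against 56.1%, and 60 were positive at both days. In 27 of the 85 (31.8%) all 4 KO pancreata lay above both wildtype pancreata at E14.5, against 8.17% of all probe sets, and in 35 (41.2%) at E16.5, against 14.5%. This held at both days for 19 probe sets, of Ina, Nefl, Stmn2, Stmn3, Ncam1, Elavl2, Prph, Dcx, Elavl4, Gfra3, L1cam and Ngfr. For neither count at both days was the share over all probe sets computed, so these counts have no background beside them. All 4 KO pancreata lay below both wildtype in 2 probe sets at E14.5 and in 5 at E16.5, against 8.06% and 11.1% of all probe sets. Some marker lists of other cells leaned upward too. Mesenchyme probe sets were positive in 23 of 25 at E14.5 and 21 of 25 at E16.5, and islet ones in 22 and 24 of 27. All 4 KO lay above both wildtype in 11 and 11 of the 25 mesenchyme probe sets, and in 8 and 5 of the 27 islet ones. Acinar probe sets were positive in 5 and 0 of 11, and adrenal cortex ones in 8 and 6 of 14.

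**Figure D1:**
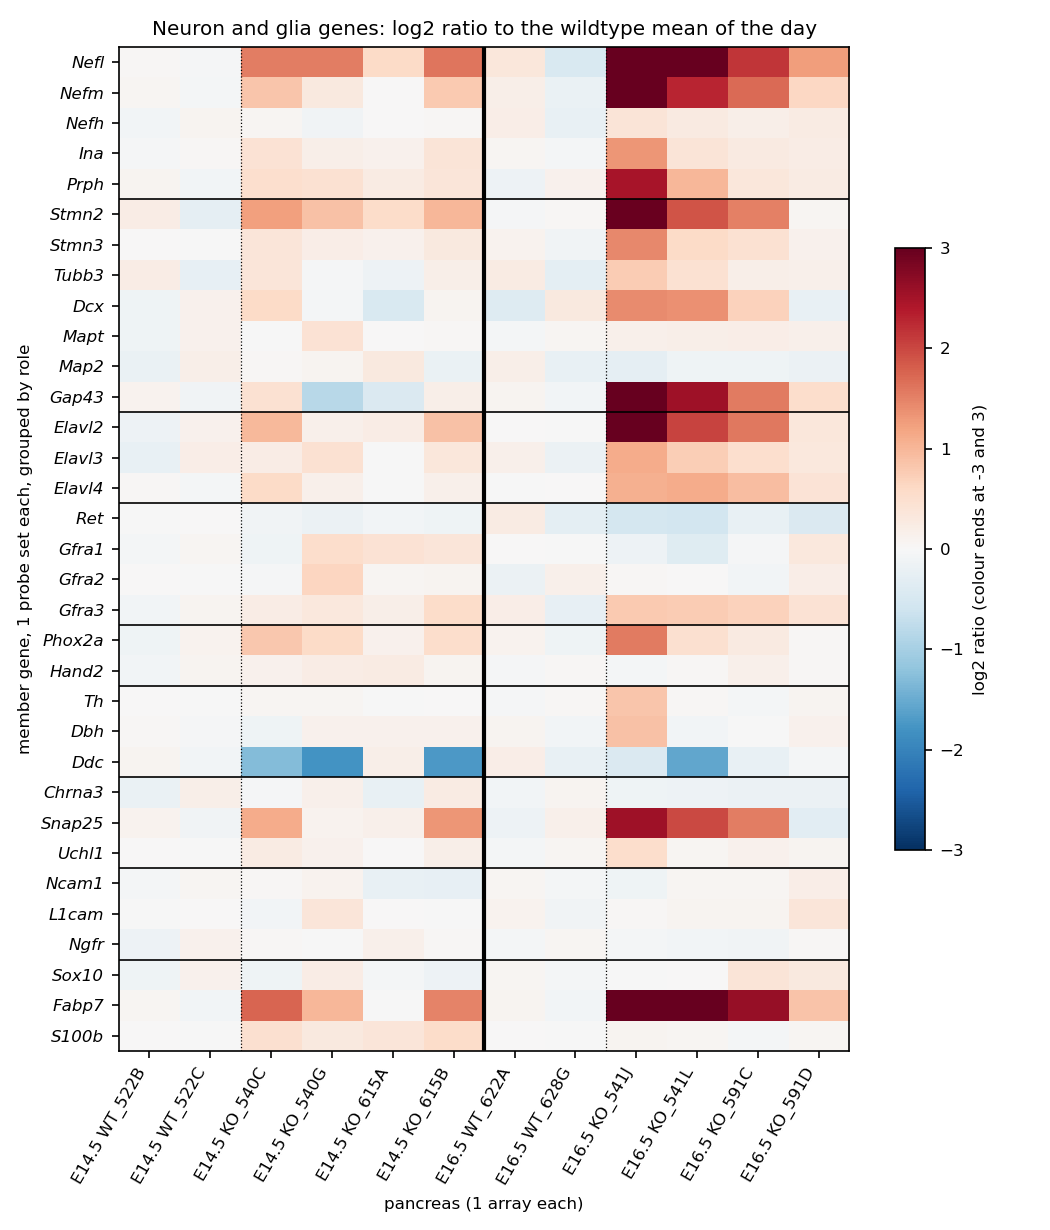
The colour gives the log2 ratio of each of the 33 genes (rows, 1 probe set each, chosen by its name, grouped by role) to the wildtype mean of the day in each of 12 pancreata (columns), with dotted lines between wildtype and KO and a solid line between the days. In the 27 neuronal genes the median log2 ratio was 0.88 in KO_541J and 0.15 in KO_591D.

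The genes of the neuronal intermediate filaments were higher than wildtype in all 4 KO at E16.5 in 4 of 5 genes on the probe set chosen by name. This held for 14.5% of all probe sets. Neurofilaments are the filament proteins that give an axon its calibre, and Nefl encodes the light chain. On its chosen probe set the Nefl ratio at E16.5 was 22.3 in KO_541J, 11.6 in KO_541L, 4.42 in KO_591C and 2.38 in KO_591D, beside 1.27 and 0.732 in the wildtype pancreata WT_622A and WT_628G. No KO pancreas overlapped the wildtype range, and the KO pancreata themselves spanned a wide range. The mean was 10.2 ± 9.02 (SD, n = 4) and the log2 fold change 2.91 ± 0.69 (limma standard error, adjusted p = 0.0488). The second Nefl probe set gave 2.82 (limma adjusted p = 0.0709) and held the highest ratio of the whole series, 26.4, again in KO_541J. At E14.5 the 4 KO ratios were 2.91, 2.91, 1.48 and 3.05 in KO_540C, KO_540G, KO_615A and KO_615B, and the wildtype ratios 1.03 and 0.974 (log2 fold change 1.31, limma adjusted p = 0.774). Nefm, the medium chain, gave a change of 2.10 in log2 at the later day (limma adjusted p = 0.0952). Nefh, the heavy chain, was at 0.29, Ina (internexin) at 0.55 and Prph (peripherin, the filament of peripheral neurons) at 1.02 (limma adjusted p = 0.254, 0.292 and 0.296). The other Prph probe sets were lower, at 0.35, 0.03 and 0.28.

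Among the microtubule and growth cone genes, Gap43, a membrane protein of growth cones, had the largest log2 fold change on the chosen probe set at E16.5, 2.01 (limma adjusted p = 0.110). Its ratios were 10.5, 5.81, 2.96 and 1.44 in KO_541J, KO_541L, KO_591C and KO_591D, and all lay above the wildtype ratios of 1.06 and 0.940. At E14.5 the same probe set was at -0.16, with 2 KO ratios above and 2 below the wildtype range. Stmn2, a tubulin-binding stathmin, was at 1.61 and Stmn3 at 0.66 (limma adjusted p = 0.157 and 0.227). The migration gene Dcx was at 0.85, the neuronal tubulin Tubb3 at 0.42 and the tau gene Mapt at 0.17, while Map2, a dendritic microtubule protein, was at -0.16. A different Map2 probe set was under wildtype in all 4 KO, at 0.516 to 0.721 (log2 fold change -0.74, limma adjusted p = 0.254). In all, 15 of the 18 probe sets of this group were positive at E16.5 (56.1% of all probe sets were) and 0 passed the test (2.62% of all did), with 7 at an unadjusted p under 0.05 (16.6% of all).

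The Elav genes encode RNA-binding proteins that appear as neurons leave the cell cycle. Elavl4 rose at E16.5 on its chosen probe set, to 2.10, 2.18, 1.91 and 1.33 in KO_541J, KO_541L, KO_591C and KO_591D beside wildtype ratios of 0.985 and 1.01. All 4 KO pancreata lay above both wildtype and KO_591D was the lowest of them. The log2 fold change was 0.88 ± 0.20 (limma standard error, adjusted p = 0.0412), and the other 2 Elavl4 probe sets gave 1.19 and 1.09 (limma adjusted p = 0.196 and 0.0907). At E14.5 it was at 0.21, with KO ratios from 0.985 to 1.50. Elavl2 reached 1.82 at E16.5 on its chosen probe set and 0.12 on another, and Elavl3 was at 0.68 (limma adjusted p = 0.128, 0.830 and 0.117).

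Ret, the tyrosine kinase receptor, and its co-receptors did not move in 1 direction. Gfra3, the co-receptor for artemin on sympathetic and sensory neurons, rose at E16.5 to 1.73, 1.70, 1.61 and 1.35 in KO_541J, KO_541L, KO_591C and KO_591D, above the wildtype ratios of 1.15 and 0.846 (log2 fold change 0.68 ± 0.15, limma standard error, adjusted p = 0.0417). Gfra3 has 1 probe set, and at E14.5 it stood at 1.13 to 1.47 in KO (log2 fold change 0.32, limma adjusted p = 0.745). Gfra1, the co-receptor for the glial cell line-derived factor itself, fell on 1 of its 3 probe sets to 0.520, 0.361, 0.621 and 0.547, below wildtype ratios of 0.929 and 1.07. The log2 fold change was -0.99 ± 0.21 (limma standard error, adjusted p = 0.0332), while the other 2 probe sets were at -0.06 and -0.10 (limma adjusted p = 0.940 and 0.791). At E14.5 the called Gfra1 probe set stood at 0.945 to 1.45 in KO. Ret itself was lower on both probe sets at E16.5, at -0.41 and -0.99 (limma adjusted p = 0.149 and 0.144). On the chosen one the KO ratios were 0.697, 0.677, 0.858 and 0.743 beside 1.18 and 0.822 in wildtype, so the groups overlapped. On the second the KO ratios of 0.496, 0.424, 0.764 and 0.400 all lay below both wildtype. At E14.5 the chosen one was at 0.924, 0.891, 0.948 and 0.911 in KO, below 0.988 and 1.01 in wildtype (log2 fold change -0.12, limma adjusted p = 0.943). The second overlapped wildtype at E14.5. Gfra2, the neurturin co-receptor, was at 0.05 on its chosen probe set and at up to 0.76 on the others.

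The autonomic transcription factors gave different values on different probe sets. Hand2, a basic helix-loop-helix factor of sympathetic and enteric neuron precursors, rose at the later day on a single probe set of 3, to 4.61, 3.84, 2.45 and 1.92 in KO_541J, KO_541L, KO_591C and KO_591D, beside 0.983 and 1.02 in wildtype. All 4 KO pancreata lay above both wildtype, in the order KO_541J, KO_541L, KO_591C, KO_591D (log2 fold change 1.60 ± 0.30, limma standard error, adjusted p = 0.0211). The other 2 Hand2 probe sets, the one chosen by name among them, were at 0.04 and 0.22 (limma adjusted p = 0.910 and 0.421). On the chosen probe set the KO ratios were 0.961, 1.02, 1.11 and 1.02, with wildtype at 0.972 and 1.03, so the groups overlapped. At E14.5 the called probe set was at 0.22, with KO ratios from 0.850 to 1.36. Phox2a, a homeodomain factor needed for noradrenergic neurons, had E16.5 ratios of 2.95, 1.39, 1.21 and 1.02 in KO_541J, KO_541L, KO_591C and KO_591D and 1.08 and 0.917 in wildtype. KO_541J stood far above the rest and KO_591D inside the wildtype range (log2 fold change 0.59, limma adjusted p = 0.433). At E14.5 its KO ratios were 1.74, 1.48, 1.10 and 1.43 (log2 fold change 0.51, limma adjusted p = 0.847).

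Of the genes of catecholamine synthesis, Th and Dbh were close to wildtype in 3 of the 4 KO pancreata at E16.5. Th, tyrosine hydroxylase, the rate-limiting enzyme, was at 1.79 in KO_541J and at 1.03, 0.964 and 1.06 in KO_541L, KO_591C and KO_591D, with wildtype at 0.978 and 1.02 (log2 fold change 0.23, limma adjusted p = 0.657). Dbh, which makes noradrenaline from dopamine, was at 1.84 in KO_541J on its chosen probe set and at 0.950, 0.993 and 1.10 in the others (log2 fold change 0.24, limma adjusted p = 0.680). On its other probe sets KO_541J was again the highest, at 1.51 and 3.05. Markers of chromaffin cells were a list of 6 genes that includes Th and Dbh and shares Chga and Chgb with the islet list. Their median log2 ratio was 0.80 in KO_541J and -0.02, -0.02 and 0.18 in KO_541L, KO_591C and KO_591D. The interquartile ranges over the 6 genes were 0.18, 1.25, 0.93 and 0.12, so the genes differed widely in KO_541L and KO_591C. Markers of the adrenal cortex had medians of -0.19 to 0.08 in the 4. The part of chromaffin or adrenal cortex cells in the values of KO_541J was not tested. Ddc, aromatic amino acid decarboxylase, was lower in 3 of 4 KO at E14.5, at 0.404, 0.288, 1.12 and 0.301 (log2 fold change -1.16, limma adjusted p = 0.709), and at -0.55 at E16.5.

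Snap25, a synaptic vesicle fusion protein, was at 5.85, 3.92, 2.91 and 0.809 at E16.5, so that 3 KO pancreata lay above and KO_591D below both wildtype (log2 fold change 1.45, limma adjusted p = 0.259). The second Snap25 probe set was at 0.01 (limma adjusted p = 0.983). Chrna3, a nicotinic receptor subunit of autonomic ganglia, had 3 probe sets that disagreed at E16.5. The chosen one was at 0.911, 0.897, 0.884 and 0.886 in KO, below both wildtype ratios of 0.945 and 1.06, with a log2 fold change of -0.16 (limma adjusted p = 0.653). A second one was at 1.86, 1.37, 1.43 and 1.39, above both wildtype (log2 fold change 0.59, limma adjusted p = 0.0612), and the last was at 0.10. Uchl1, a neuronal ubiquitin hydrolase, was at 0.20 (limma adjusted p = 0.524).

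The 3 genes of neurons and glia were at a median of 0.05 in log2 at the later day on the probe sets chosen by name. Ngfr, the p75 neurotrophin receptor of neural crest and Schwann cells, rose on 1 of its 3 probe sets to 1.38, 1.66, 1.42 and 1.24, beside 1.02 and 0.978 in wildtype (log2 fold change 0.50 ± 0.12, limma standard error, adjusted p = 0.0452). At E14.5 the KO ratios of that probe set, 1.24, 1.40, 1.19 and 1.27, also all lay above wildtype (log2 fold change 0.35, limma adjusted p = 0.607). Its other 2 probe sets were at -0.06 and -0.25 at E16.5. The cell adhesion genes Ncam1 and L1cam were at 1.37 and 1.36 on 2 of the 7 Ncam1 probe sets and at 1.08 on 1 of the 2 L1cam probe sets (limma adjusted p = 0.0751, 0.106 and 0.128), and at 0.05 and 0.15 on the chosen ones.

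Of the glial genes, Fabp7, a fatty acid binding protein of glial precursors, had the largest log2 fold change. Its E16.5 ratios were 8.99, 9.27, 6.15 and 1.81 in KO_541J, KO_541L, KO_591C and KO_591D, and wildtype was at 1.06 and 0.939. All 4 KO lay above wildtype, with a log2 fold change of 2.47 ± 0.60 (limma standard error, adjusted p = 0.0533). At E14.5 the ratios were 3.37, 1.99, 0.994 and 2.80 (log2 fold change 1.06, limma adjusted p = 0.802). Sox10, the transcription factor of neural crest and glia, was at 0.17, -0.06 and 0.36 on its 3 probe sets at E16.5 (limma adjusted p = 0.644, 0.905 and 0.263). The chosen Sox10 probe set stood at 0.989, 1.01, 1.32 and 1.22 in KO and at 1.04 and 0.962 in wildtype, so the groups overlapped. S100b, a calcium-binding protein of Schwann cells, had no overlap between the groups at E14.5 on its chosen probe set. Its KO ratios at E14.5 were 1.39, 1.23, 1.29 and 1.47 beside 1.01 and 0.988 (log2 fold change 0.42, unadjusted p = 7.57e-04, limma adjusted p = 0.406), and at E16.5 1.06, 1.04, 0.966 and 1.03 beside 1.01 and 0.993 (log2 fold change 0.04). The difference between the days was -0.39 (limma adjusted p = 0.305).

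**Figure D2:**
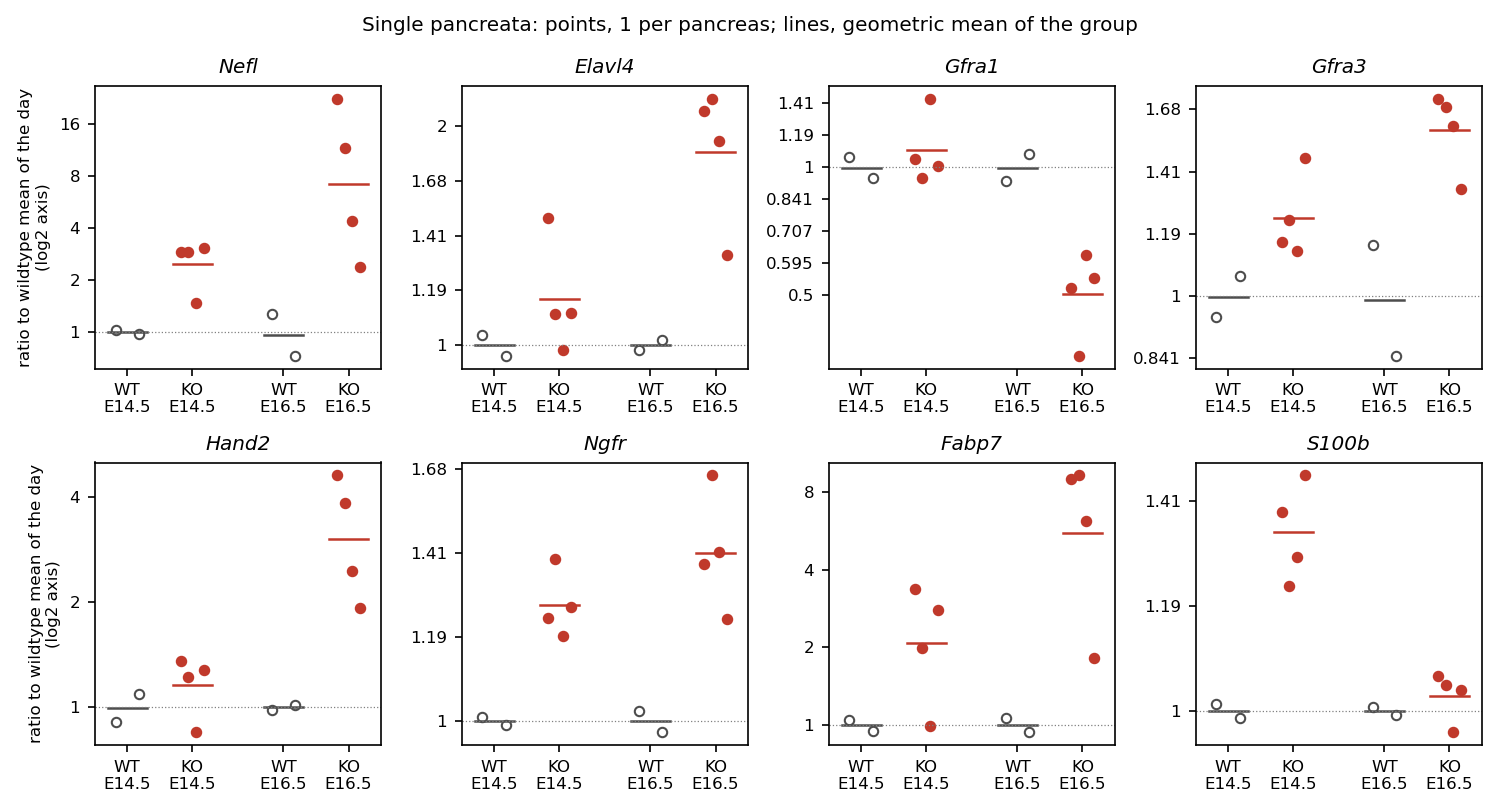
Each point is the ratio of 1 pancreas to the wildtype mean of its day (log2 axis, open for wildtype, filled for KO) and each line the geometric mean of a group, for the 6 probe sets called at E16.5 and for the glial genes Fabp7 and S100b. At E16.5 all 4 KO points lie above both wildtype points for Nefl, Elavl4, Gfra3, Hand2, Ngfr and Fabp7, and below both for Gfra1.

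Neuronal and glial genes were compared by their medians over 1 probe set per gene. The median at E16.5 was 0.55 in log2 over the 27 neuronal genes and 0.17 over the 3 glial genes, against 0.03 over all probe sets. At E14.5 it was 0.18 and 0.42, against 0.02. With all probe sets counted singly the neuronal medians were 0.29 and 0.17 and the glial ones 0.10 and 0.29 at E16.5 and E14.5. Without KO_541J and KO_541L the order at E16.5 turned, with 0.23 over the neuronal and 0.35 over the glial genes. The log2 fold change was larger at E16.5 than at E14.5 in 21 of the 27 neuronal genes and in 57 of the 85 probe sets, against 52.3% of all probe sets. Without KO_541J and KO_541L it was larger in 44 of the 85, against 24573 of all 45037, so the members no longer stood above all probe sets. The difference between the neuronal and the glial median was not tested.

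**Figure D3:**
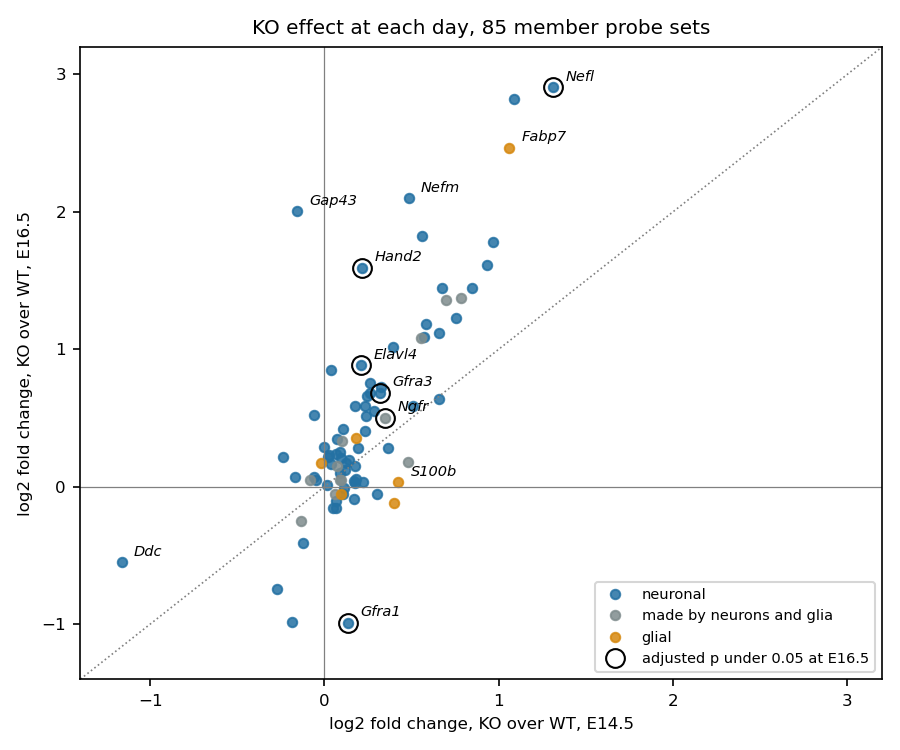
Each of the 85 points is 1 probe set, with its log2 fold change of KO over wildtype at E14.5 on the horizontal and at E16.5 on the vertical axis, a ring for an adjusted p under 0.05 at E16.5, and a dotted line where the days are equal. Nefl and Fabp7 lie high above the line at 2.91 and 2.47 on the vertical axis, and Gfra1 lies at -0.99.

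The 4 KO pancreata of E16.5 differed from one another in a similar order across neuronal genes. KO_541J held the highest ratio in 19 of the 27 genes and KO_591D the lowest in 15, and in 14 the ratios ran KO_541J, KO_541L, KO_591C, KO_591D from high to low. The labels do not give what the number shared by KO_541J and KO_541L, or by KO_591C and KO_591D, stands for, and both of the first pair lay above both of the second in 17 of the 27 genes. The median log2 ratio over the 27 genes was 0.88, 0.47, 0.27 and 0.15 in these 4, and over the 3 glial genes 0.08, 0.06, 0.40 and 0.29. At E14.5 the neuronal median was 0.24, 0.16, 0.12 and 0.17 in KO_540C, KO_540G, KO_615A and KO_615B, and KO_615A held the lowest ratio in 15 of the 27 genes. Acinar markers had a median of -0.48, -0.74, 0.42 and -1.59 in the same 4, so that KO_615A was the KO pancreas with the lowest neuronal and the highest acinar median. Mesenchyme markers were at 0.53, 0.84, -0.03 and 0.22 in KO_541J, KO_541L, KO_591C and KO_591D, and islet endocrine markers at 0.06, 0.98, 0.59 and -0.07. The part of the acinar loss, or of mesenchyme and islet cells, in the neuronal values was not tested.

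**Figure D4:**
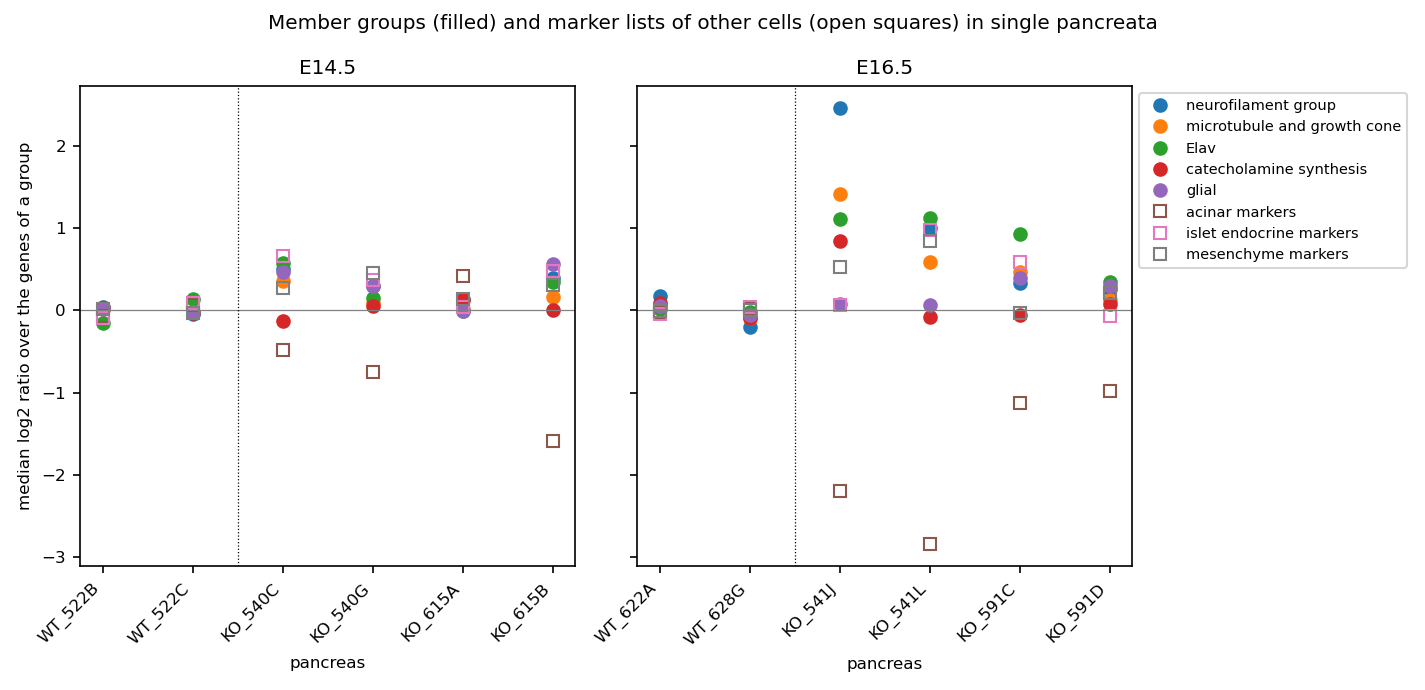
The vertical axis is the median log2 ratio over the genes of a group (filled circles) or a marker list of other cells (open squares) in single pancreata of E14.5 (left) and E16.5 (right), with wildtype left of the dotted line. In KO_541J the intermediate filament group stands at 2.46 and the acinar markers at -2.20.

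Other genes of the same lineages were followed in lists taken by name. Of 34 further autonomic neuron and neural crest genes, 29 were higher in KO at E16.5 on their chosen probe sets (56.1% of all probe sets were) and 0 passed the limma test (2.62% of all), with 4 at an unadjusted p under 0.05 (16.6% of all), and their median log2 fold change was 0.13 against 0.03 over all probe sets. Among their 65 probe sets 53 were higher and 2 were called higher by limma, against 0.802% of all probe sets called higher. Both were of the endothelin receptor gene Ednrb, which neural crest cells use to migrate along the gut. Their log2 fold changes were 1.42 and 0.95 (limma adjusted p = 0.0431 and 0.0229). Of 17 further Schwann and enteric glia genes, 13 were higher at E16.5 on the chosen probe sets, with 1 called higher and 1 lower, where 0.802% and 1.82% of all probe sets were. Egr2, the factor that drives myelination, rose by 1.07 (limma adjusted p = 0.0238), and Cnp, a myelin phosphodiesterase, fell by 0.80 (limma adjusted p = 0.0088). A second Cnp probe set fell by 1.09 and 1 Mbp (myelin basic protein) probe set rose by 1.77 (limma adjusted p = 0.0271 and 0.0332). Foxd3, a neural crest factor, and the glial cadherin Cdh19 were at 0.48 and 0.88 (limma adjusted p = 0.0509 and 0.0506).

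Promoters are shown for the 4 called genes with an entry among the RefSeq promoters (GRCm38.p6), 300 bases from 250 before to 50 after the start, so that the sequence beside the rise or fall can be read. Capitals mark the E-box CANNTG, the motif of basic helix-loop-helix factors such as Hand2, which reads the same on both strands. Elavl4 has 4 starts, of which the first is shown, at chr4:110351862-110352161 on the minus strand, and Gfra1 lies at chr19:58455349-58455648 on the minus strand, Hand2 at chr8:57320733-57321032 on the plus strand and Ngfr at chr11:95587649-95587948 on the minus strand. Nefl and Gfra3 are named only.
Elavl4: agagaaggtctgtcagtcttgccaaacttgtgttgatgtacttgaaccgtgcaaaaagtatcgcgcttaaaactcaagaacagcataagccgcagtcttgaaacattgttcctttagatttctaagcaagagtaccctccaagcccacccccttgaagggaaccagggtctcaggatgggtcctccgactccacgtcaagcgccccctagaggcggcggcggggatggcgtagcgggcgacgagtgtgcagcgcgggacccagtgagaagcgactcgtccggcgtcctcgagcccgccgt
Gfra1: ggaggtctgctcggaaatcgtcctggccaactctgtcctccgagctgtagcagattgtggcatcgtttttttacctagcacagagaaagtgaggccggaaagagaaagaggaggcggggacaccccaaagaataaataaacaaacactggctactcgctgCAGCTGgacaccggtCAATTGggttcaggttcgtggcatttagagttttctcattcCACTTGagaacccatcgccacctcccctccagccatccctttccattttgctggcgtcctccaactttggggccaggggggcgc
Hand2: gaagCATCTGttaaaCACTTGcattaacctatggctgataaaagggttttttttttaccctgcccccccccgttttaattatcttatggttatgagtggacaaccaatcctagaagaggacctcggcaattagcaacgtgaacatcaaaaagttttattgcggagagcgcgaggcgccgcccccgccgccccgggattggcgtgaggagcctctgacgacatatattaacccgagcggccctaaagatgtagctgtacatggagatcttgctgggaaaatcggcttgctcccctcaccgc
Ngfr: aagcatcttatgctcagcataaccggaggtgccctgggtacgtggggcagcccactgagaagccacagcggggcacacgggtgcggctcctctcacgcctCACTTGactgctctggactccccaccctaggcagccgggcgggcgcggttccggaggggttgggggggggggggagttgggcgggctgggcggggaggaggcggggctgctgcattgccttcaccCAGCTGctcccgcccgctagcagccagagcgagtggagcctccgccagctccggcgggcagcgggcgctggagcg

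Gfra1 holds 3 E-boxes in this window, Hand2 and Ngfr 2 each, and Elavl4 0. CANNTG is a common word: 72.3% of 32851 promoters of this length hold it, and 23 of the 32 entries of 21 member genes do (71.9%). The homeodomain core TAATTA, the same on both strands, was in 5 of the 32 (15.6%) against 5.29% of all promoters, where entries of 1 gene can overlap. Hand2 has 1. A match is a description of these letters and not a binding site.

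Of the 24 genes with several probe sets, 8 had probe sets of opposite sign at E16.5 and 5 had probe sets more than 1 apart in log2 fold change, Elavl2, Hand2, Snap25, Ncam1 and Stmn3. For Hand2, Gfra1 and Ngfr the call rests on 1 of 3 probe sets. Leaving out 1 KO array at a time gave 0 calls at E16.5 without KO_541L, 1 without KO_541J and 2 without KO_615B or KO_591C. The count was 4 to 5 without KO_540C, KO_540G or KO_615A, and 26 without KO_591D, of which 25 were higher in KO. Leaving out a wildtype array leaves 1 in its group, so those counts are not given here. Without WT_628G none of the reported calls held, and Ret on its chosen probe set went from -0.41 to -0.67. The count over all probe sets moved as well, from 1182 to 476 without KO_541L, 404 without KO_541J and 2862 without KO_591D. It was 787 without KO_615B, 747 without KO_591C, 945 without KO_540C, 1467 without KO_540G and 1045 without KO_615A. Without KO_541J and KO_541L, an alternative added after seeing the data, limma called 0 at E16.5 (188 of all probe sets). An unadjusted p under 0.05 was then reached by 23 of the members, and the share over all probe sets at that limit was not computed. A trended and robust variance and a fit of each day on its own 6 arrays also gave 0 calls (86 and 159 of all probe sets).

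**Figure D5:**
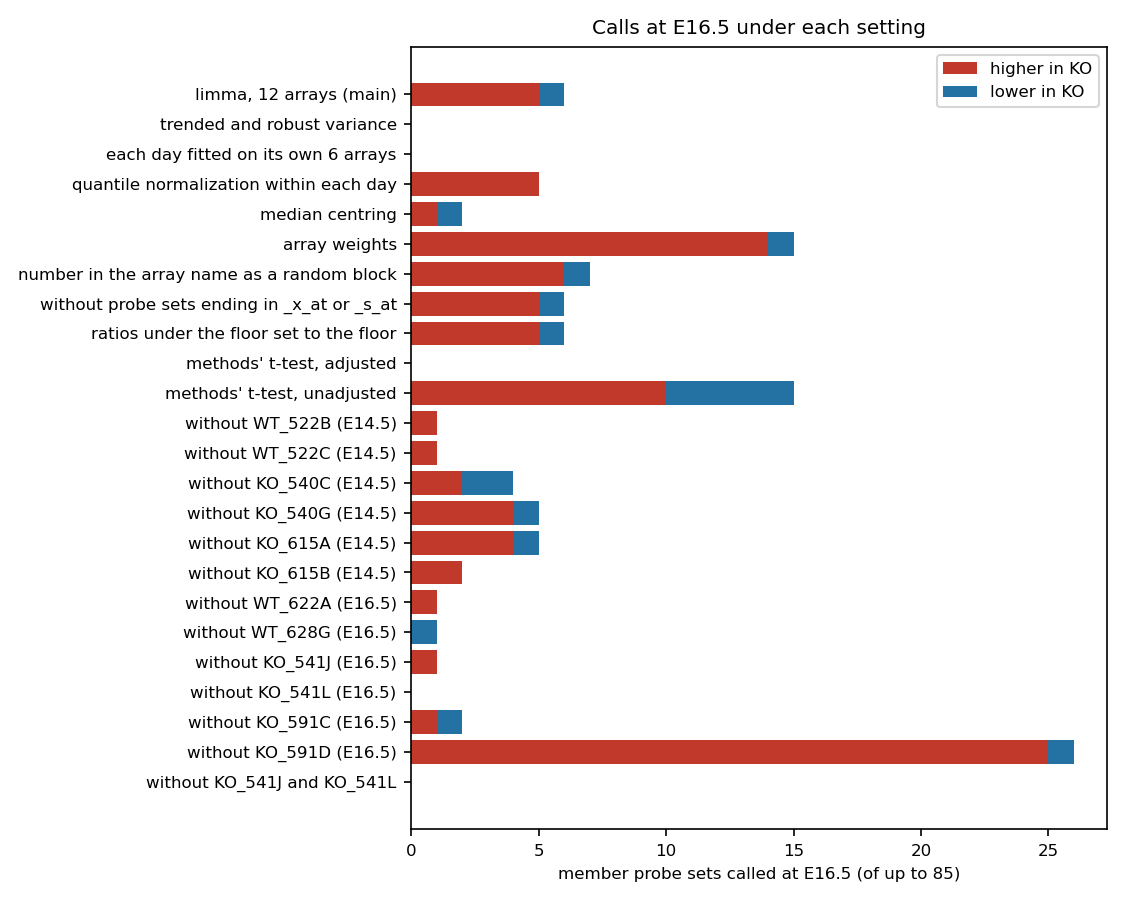
Bars give the number of member probe sets called at E16.5 under each setting (red, higher in KO, blue, lower in KO), all at an adjusted p under 0.05 except the bar named unadjusted. The main limma fit gave 6, the fit without KO_591D gave 26, and the trended and robust variance gave 0 (1182, 2862 and 86 over all probe sets).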

How the data were processed

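Total RNA of single pancreata was amplified in 2 rounds, labelled and hybridised to whole-genome Affymetrix mouse arrays, per the study's methods. The authors normalised the arrays by RMA and deposited each value as a linear ratio, dividing it by the average over the day's 2 wildtype arrays. The 2 wildtype ratios of a day sum to 2 (largest deviation 3.0e-07), so a wildtype pair carries 1 independent value per probe set, and its spread is symmetric by construction. Signal over background was not analysed here, and the number of arrays limits the precision.

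Of 45101 probe sets, 64 Affymetrix controls were left out. In the platform annotation 34945 of the remaining 45037 had 1 gene symbol, 932 several and 9160 none, and members were named only from the first kind. Groups came from the sample titles. limma 3.58.1 (R 4.3.3) (lmFit, contrasts.fit, eBayes) was run on log2 of the ratios as 4 group means over 12 arrays with 8 residual degrees of freedom, two-sided, with Benjamini-Hochberg adjustment over all probe sets and a limit of 0.05. Contrasts were KO minus wildtype at each day and the difference of both. The probe set of a gene was chosen by name alone (the plain suffix _at before _a_at, and both before _s_at and _x_at, then the lowest number). Values in every array are given for members with a probe set past the limit, for the glial genes, and for Ret, Phox2a, Hand2, Th, Dbh and Chrna3, with single arrays of Gap43, Snap25 and Ddc added after their values were seen. The fit was repeated with a trended and robust variance, each day alone, quantile normalisation, median centring and array weights. The number in the array name as a random block, a suffix filter and a floor of 0.1 on ratios were also used. So were the methods' t-test, without the study's fold filter, and leaving out arrays. The fit was tested on simulated data. The members and lists were chosen with earlier results of these data known. Nothing in the labels says that embryos of a group came from separate litters. Marker lists of smooth muscle, skeletal muscle, spleen anlage and gut epithelium were also read. Their genes gave median log2 fold changes at E16.5 of 0.32, -0.03, -0.02 and -0.07. The design text gives the earlier day slightly differently from the sample titles, which were used here.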

Additional observations from a re-analysis of the deposited data

Results flagged for a closer look

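In 3 of 34 groups of 4 KO values examined, 1 pancreas stood apart from the other 3 by more than 0.829 of the range of log2 ratios, where chance alone gives about 1 in 20 groups, or 1.7 of 34. Nefl at E14.5 was at 1.48 in KO_615A, below the other 3 KO pancreata at 2.91 to 3.05. Dbh at E14.5 was at 0.916 in KO_540C, and the other 3 KO pancreata at 1.09 to 1.10. Th at E16.5 was at 1.79 in KO_541J, above 0.964 to 1.06 in the others.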

How the results depend on the processing

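The count of member probe sets called at E16.5 was 6 in the reported limma fit, where 1182 of all 45037 probe sets were called. It was 0 with a trended and robust variance (86 of all probe sets) and 0 with each day fitted on its own 6 arrays (159). It was 2 after median centring (973) and 15 with array weights (2380). The methods' t-test was adjusted over all 45037 probe sets, without the study's fold filter. It called 0 members and 0 of all probe sets. Quantile normalisation within each day gave 5 (274 of all probe sets), of which 2 were among the reported 6. The methods' t-test at an unadjusted p under 0.05 gave 12 at E14.5 and 15 at E16.5, against 2269 and 5539 of all 45037 probe sets. Leaving out 1 array at a time gave 0 to 26 at E16.5, and 0 at E14.5 and for the difference each time. Without KO_541J and KO_541L the count was 0 (188 of all probe sets). The neuronal median at E16.5 was then 0.23 and the glial one 0.35, so that their order turned. The neuronal median at E14.5 ranged from 0.151 (without KO_540G) to 0.246 (without WT_522C). The causes were not tested. The call ended in 17 of 23 alternatives for Nefl, 14 for Elavl4 and 12 for Gfra1. It ended in 13 for Gfra3, 7 for Hand2 and 16 for Ngfr. Among the 23 was the methods' t-test at an unadjusted p under 0.05, a looser limit than that of the call. There Elavl4, Gfra1, Gfra3, Hand2 and Ngfr were counted as kept and Nefl as ended. The direction of these 6 probe sets held in all 23. Hand2 on its chosen probe set turned to -0.00144 at E16.5 without WT_622A (up to 0.0794 without WT_628G), Chrna3 to -0.13 without WT_522B and to -0.02 without KO_615B at E14.5, Sox10 at E14.5 from -0.02 to 0.11, 0.01 and 0.02 without WT_522C, KO_540C and KO_615B (lowest -0.15 without WT_522B), and S100b to -7.31e-04 at E16.5 without KO_541J and KO_541L. No paired analysis was possible because the labels give no replicate numbers shared between groups. Taking the number in the array name as a random block kept all 6 calls and gave 7, while calls over all probe sets rose from 1182 to 1377. The correlation within a number, a single value estimated over all probe sets, was negative (-0.0876). Such a value does not allow for members that go together by number, so the part of the number in these calls was not tested.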
